A study of Mus musculus with 56 samples.

Results

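Liver stores glucose as glycogen, and 8 genes of its synthesis and breakdown were followed here across the day in mice fed only in the light or only in the dark. The members were taken by gene symbol: Gys2, Gbe1 and Ugp2 of synthesis, Pygl and Phka2 of breakdown, and Ppp1r3b, Ppp1r3c and Ppp1r3g, which bring a phosphatase to glycogen. All 8 were among the 25415 genes listed and among the 24096 whose values could be rebuilt and tested. Livers came from 56 female C57BL/6J mice aged 9 weeks, kept in 12 h of light and 12 h of dark and given chow by day (daytime-restricted feeding, DRF) or by night (nighttime-restricted feeding, NRF) for 7 days. Each regimen had 4 mice at each of 7 zeitgeber times (ZT0, 4, 8, 12, 16, 20 and 24, with light from ZT0 to ZT12), 14 groups in all, and NRF served as the reference. Total RNA was depleted of ribosomal RNA, made into strand-specific libraries and sequenced. Each mouse gave 1 liver at 1 time, so no animal was followed over time, and whole liver holds hepatocytes together with other cells.

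As background, glycogen synthase (Gys2 in liver) lengthens the glucose chains from UDP-glucose, which UDP-glucose pyrophosphorylase (Ugp2) makes, and the branching enzyme (Gbe1) adds the branches. Liver glycogen phosphorylase (Pygl) releases glucose 1-phosphate and is switched on by phosphorylase kinase, of which Phka2 encodes a regulatory subunit found in liver. Protein phosphatase 1 reverses such phosphorylation, and its glycogen-targeting subunits, among them Ppp1r3b, Ppp1r3c and Ppp1r3g, hold it at the glycogen particle.

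Expression is given as a scaled count, a number proportional to the count of a gene and close in size to CPM, rebuilt from the deposited values. Differences are in log2(scaled count + 1), with the standard error (SE), and adjusted p-values come from limma with Benjamini-Hochberg adjustment over all 24096 genes unless another test is named. A gene was called at an adjusted p under 0.05. Sums of scaled counts per library ran from 854759 to 1069610, and 1 scaled count stood for 304 to 723 recovered counts. Replicate livers correlated at 0.965 to 0.990 (Pearson's r of log2 values over 13634 genes, 84 pairs). Across genes, exon length went with the deviation of a library from the mean of all libraries, and the group mean of that rank correlation ran from -0.233 (DRF ZT8) to 0.183 (NRF ZT24).

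Of the hepatocyte markers 5 of 6 were tested, and albumin had a median of 87870 scaled counts. Hepatocyte markers beside albumin had medians from 653 (Tat) to 19327.5 (Cps1). Markers of the other cell types were low beside albumin, though not beside every hepatocyte marker. Their sums in fed-phase livers had medians of 604 scaled counts for 5 Kupffer cell markers and 688 for 5 stellate cell markers. The medians were 800 for 4 red blood cell markers and 6.90 for 4 cholangiocyte markers. None of 4 skeletal muscle markers was analysed here. In these bulk samples, fewer cells of a type and less RNA per cell cannot be told apart.

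The upstream sequences of 3 members are shown because these genes mark the extremes of the results: Ppp1r3c had the widest gap between regimens at 1 time in log2(scaled count + 1), Ppp1r3g appeared in 1 group almost alone, and Pygl moved little. The windows, from RefSeq on GRCm38.p6, run 5′ to 3′ from 250 to 56 bases before the RefSeq start, hold no exon base of their gene, and have motif matches in capitals. The gene coordinates given further on are those of GENCODE, whose genes begin 3805 bases (Pygl) and 9067 bases (Ppp1r3g) upstream of the RefSeq start, so these windows lie in an intron of the GENCODE gene, while a GENCODE transcript starts 0 and 40 bases from the RefSeq start.
Ppp1r3c (chr19:36736660-36736854, minus strand): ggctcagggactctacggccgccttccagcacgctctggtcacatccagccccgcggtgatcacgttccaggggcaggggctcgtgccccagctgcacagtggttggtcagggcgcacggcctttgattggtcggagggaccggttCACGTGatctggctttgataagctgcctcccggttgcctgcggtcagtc
Ppp1r3g (chr13:35967656-35967850, plus strand): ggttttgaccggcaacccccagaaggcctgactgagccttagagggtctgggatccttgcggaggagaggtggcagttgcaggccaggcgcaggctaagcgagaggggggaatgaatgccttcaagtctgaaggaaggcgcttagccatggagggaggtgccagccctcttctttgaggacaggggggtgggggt
Pygl (chr12:70227739-70227933, minus strand): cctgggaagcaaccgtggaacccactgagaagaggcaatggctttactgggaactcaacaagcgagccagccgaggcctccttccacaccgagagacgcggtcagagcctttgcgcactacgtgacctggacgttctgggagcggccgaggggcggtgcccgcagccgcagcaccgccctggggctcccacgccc
The capitals in the Ppp1r3c window are an E-box, CACGTG, which begins 104 bases before the RefSeq start. E-boxes of these letters were found in 4.17% of 32851 windows of the same length. Also searched, on both strands, were the D-box (TTATGTAA or TTACGTAA, in 0.691% of windows), the cyclic AMP response element (TGACGTCA, in 0.77%) with its core TGACG (12.2%), a forkhead motif (TGTTTAC, 2.54%) and a ROR element (TAGGTCA, 1.74%). The core lies within the full element. Windows of Gbe1, Phka2, Pygl, Ppp1r3g and both windows of Ugp2 held none of these letters. No window was at hand for Gys2 or Ppp1r3b, so these were not searched.

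All 8 members differed between DRF and NRF at 1 time or more (F test over the 7 times), against 43.1% of all genes, with adjusted p from 6.35e-23 for Ppp1r3c to 0.00549 for Pygl. Over the 56 pairs of member and time, 34 were called, and the 4 livers of one regimen lay clear of the 4 of the other in 31. Most members were called at ZT0, 6 of 8 against 16.1% of all genes, and at ZT12, 6 against 15.6%. ZT4 gave 5 (20.9% of all genes) and ZT24 also 5 (14.2%). ZT8 gave 4 (13.3%), as did ZT16 (15.6%) and ZT20 (14%). Over all genes the ranges lay apart in 19.7%, 22.8%, 18.3%, 16.3%, 16.2%, 17.8% and 16.9% in the order of the times.

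**Figure D1:**
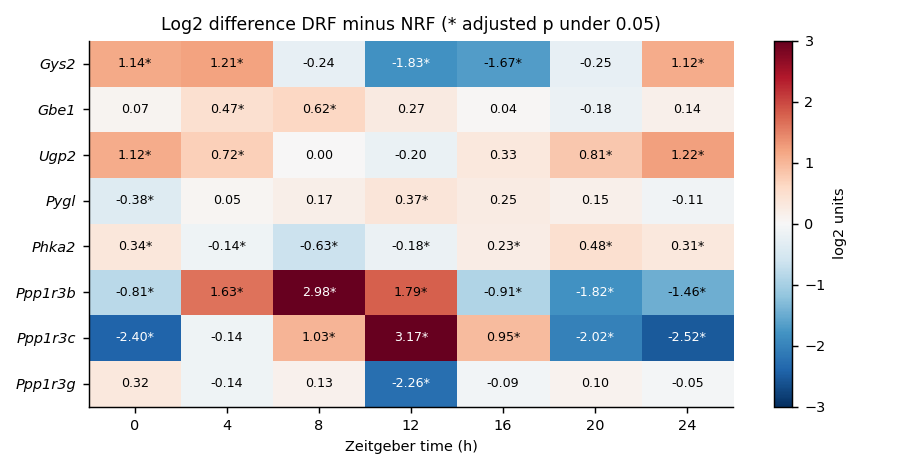
Log2 difference between DRF and NRF for the 8 members (rows) at the 7 zeitgeber times in h (columns), with colour and number giving the log2 value and a star for an adjusted p under 0.05 (limma). Ppp1r3b and Ppp1r3c show the widest values, 2.98 at ZT8 and 3.17 at ZT12, and Gbe1 and Pygl carry 2 stars each.

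Of the synthesis genes, Gys2 (ENSMUSG00000030244, chromosome 6, 142422613 to 142473109, minus strand), glycogen synthase of liver, was highest at opposite ends of the light phase in the regimens. At ZT12 the NRF livers held 792, 1170, 1223 and 1093 scaled counts and the DRF livers 349, 321, 274 and 253. The lowest NRF liver, replicate 1, still lay above every DRF liver. At ZT4 the order was turned, with 541, 562, 608 and 469 under DRF and 222, 241, 234 and 241 under NRF, again without overlap. DRF was lower by a log2 difference of -1.83 ± 0.11 (SE) at ZT12 (adjusted p = 2.07e-16) and -1.67 ± 0.11 at ZT16, and higher by 1.14 at ZT0, 1.21 at ZT4 and 1.12 at ZT24. At ZT8 and ZT20 the differences of -0.24 and -0.25 did not pass the test.

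The range of Gys2 over the day was narrower under DRF. Its group means ran from 241 ± 13.96 (SD, n = 4) at ZT16 to 553 ± 52.3 at ZT24 under DRF, 2.29-fold, and from 235 ± 8.85 at ZT4 to 1070 ± 193 at ZT12 under NRF, 4.56-fold. The amplitude of the fitted 24-h cosine was 165 ± 10.7 scaled counts (SE) under DRF and 382 ± 31.3 under NRF, and the difference of -217 ± 33.0 passed the amplitude test (adjusted p = 1.89e-05), as did 6.03% of all genes. No other member passed on this scale. On the log2 scale Ppp1r3b passed too, with -0.55 ± 0.16 (adjusted p = 0.025).

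Ugp2 (ENSMUSG00000001891, chromosome 11, 21321138 to 21371201, minus strand) makes the UDP-glucose that Gys2 uses, and shares 2.54% of its exon bases with Gm12043 on the opposite strand. At ZT24 it stood at 1509, 1661, 2191 and 1816 scaled counts under DRF and 733, 809, 737 and 773 under NRF. At ZT0 the values were 1549, 1363, 1466 and 1194 against 598, 616, 672 and 658. The lowest DRF liver was above the highest NRF liver at both times. DRF was higher by 1.12 ± 0.16 (log2, SE) at ZT0, 0.72 at ZT4, 0.81 at ZT20 and 1.22 at ZT24 (adjusted p = 1.07e-07 at ZT24), and Ugp2 was lower under DRF at no time that passed. From ZT8 to ZT16 the ranges overlapped and the differences, 0.0011, -0.20 and 0.33, did not pass.

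Gbe1 (ENSMUSG00000022707, chromosome 16, 70313949 to 70569716, plus strand), the branching enzyme, differed in the light phase. At ZT8 the DRF livers held 1220, 1141, 1560 and 1236 scaled counts and the NRF livers 833, 794, 977 and 736, with no overlap. The log2 difference was 0.62 ± 0.14 (SE, adjusted p = 0.00157) at ZT8 and 0.47 ± 0.14 (adjusted p = 0.0137) at ZT4. The call at ZT4 was lost without NRF ZT4 replicate 3 (adjusted p = 0.0709) or replicate 4 (0.0722). At the other 5 times the differences lay between -0.18 and 0.27 and did not pass.

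**Figure D2:**
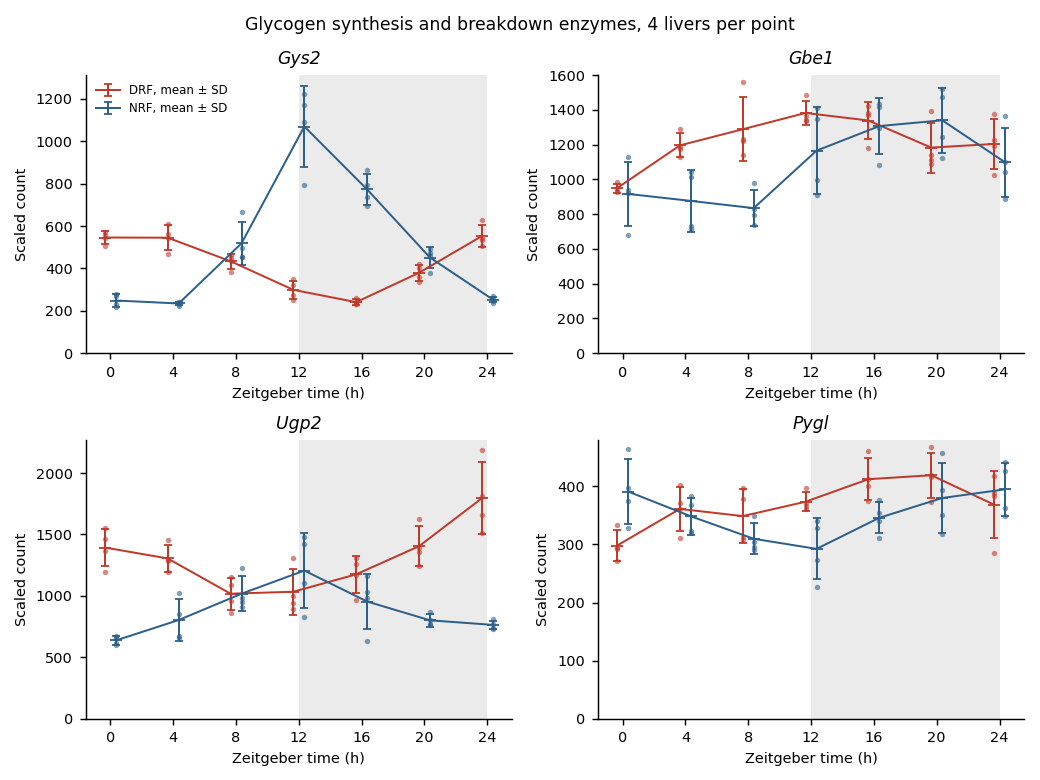
Scaled counts of Gys2, Gbe1, Ugp2 and Pygl against zeitgeber time in h, with a point per liver and lines through group means ± SD (n = 4), DRF in red, NRF in blue and the dark phase shaded. Gys2 under NRF rises to a mean of 1070 at ZT12 where DRF is at 299, and Ugp2 under DRF stands above NRF at ZT0, ZT4, ZT20 and ZT24.

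Of the breakdown genes, Pygl (ENSMUSG00000021069, chromosome 12, 70190811 to 70231488, minus strand), the liver phosphorylase, moved little. Its 14 group means lay between 292 ± 52.7 (SD, n = 4; NRF ZT12) and 419 ± 39.0 (DRF ZT20) scaled counts. At ZT12 the DRF livers held 371, 366, 397 and 361 and the NRF livers 227, 273, 329 and 341, a log2 difference of 0.37 ± 0.12 (SE, adjusted p = 0.0278). That call was lost without DRF ZT12 replicate 1 (adjusted p = 0.0501) or 3 (0.0811) and without NRF ZT12 replicate 1 (0.185) or 2 (0.0809). At ZT0 DRF was lower by -0.38 ± 0.12 (adjusted p = 0.0209) with overlapping ranges, and the call was lost without DRF ZT0 replicate 2 (0.0742) or NRF ZT0 replicate 3 (0.123).

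Phka2 (ENSMUSG00000031295, chromosome X, 160502166 to 160598878, plus strand), the phosphorylase kinase subunit, changed by small amounts with very close replicates. It shares 1.9% of its exon bases with Gm15243 on the opposite strand. At ZT8 the DRF livers stood at 54.5, 62.0, 65.0 and 61.8 scaled counts and the NRF livers at 95.7, 98.5, 90.7 and 94.6. At ZT20 they stood at 79.4, 89.1, 86.0 and 88.1 under DRF against 64.3, 62.4, 59.1 and 58.0. The order of the regimens was opposite at these 2 times, each time without overlap. The differences passed at all 7 times, higher under DRF at ZT0 (0.34), ZT16 (0.23), ZT20 (0.48 ± 0.04) and ZT24 (0.31) and lower at ZT4 (-0.14), ZT8 (-0.635 ± 0.04) and ZT12 (-0.18). The call at ZT4 was lost without DRF ZT4 replicate 3 (adjusted p = 0.0648) and without NRF ZT4 replicate 1 (0.0877) or 4 (0.086).

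Of the targeting subunits, Ppp1r3b (ENSMUSG00000046794, chromosome 8, 35375739 to 35388139, plus strand), known as the main one of liver, was high in the hours with food in both regimens. At ZT8 the livers held 123, 133, 157 and 116 scaled counts under DRF and 18.6, 17.6, 10.4 and 18.1 under NRF. At ZT20 they held 30.5, 44.9, 54.5 and 48.4 under DRF and 158, 173, 154 and 143 under NRF. The groups did not overlap at either time, and their order was opposite. The log2 difference was 2.98 ± 0.24 (SE, adjusted p = 1.07e-12) at ZT8, 1.63 at ZT4 and 1.79 at ZT12, and -0.91 at ZT16, -1.82 ± 0.24 at ZT20 and -1.46 at ZT24. At ZT0 the difference of -0.81 passed (adjusted p = 0.0127) with overlapping ranges, and was lost without DRF ZT0 replicate 1 (0.118) or NRF ZT0 replicate 3 (0.0713).

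Ppp1r3c (ENSMUSG00000067279, chromosome 19, 36731731 to 36736653, minus strand), a second targeting subunit and the one with the E-box printed above, also changed places between the regimens. At ZT12 the livers held 41.8, 37.4, 43.0 and 43.9 scaled counts under DRF and 3.92, 3.02, 4.70 and 3.44 under NRF, and the DRF mean was 11.01 times the NRF mean. At ZT24 the livers held 11.003, 5.97, 5.23 and 7.76 under DRF and 46.5, 55.0, 42.7 and 41.9 under NRF, and the NRF mean was 6.21 times the DRF mean. The log2 difference was 3.17 ± 0.19 (SE, adjusted p = 2.53e-17) at ZT12, 1.03 at ZT8 and 0.95 at ZT16, and -2.40 at ZT0, -2.02 at ZT20 and -2.52 ± 0.19 at ZT24. Only the difference at ZT4, -0.14, did not pass among its 7 times.

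**Figure D3:**
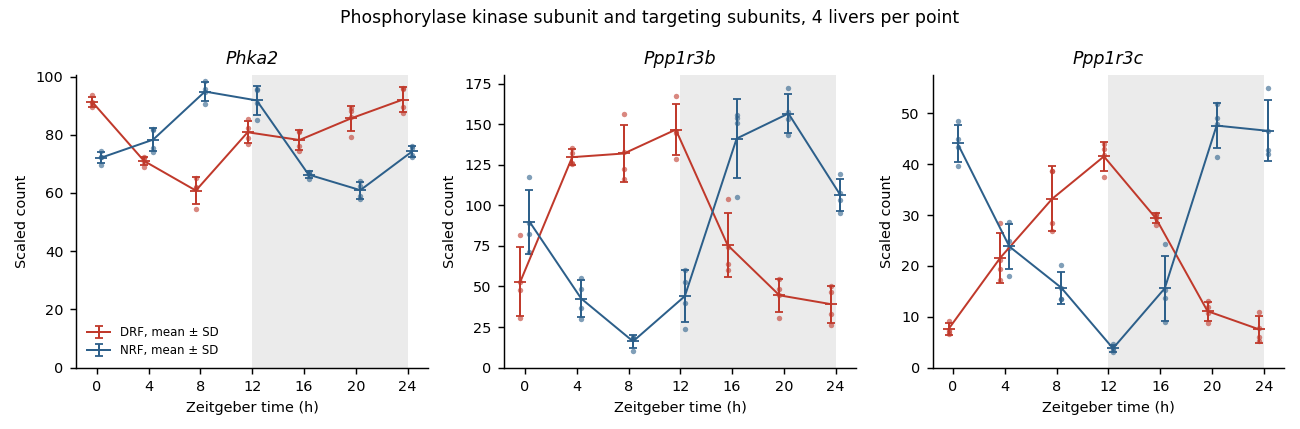
Scaled counts of Phka2, Ppp1r3b and Ppp1r3c against zeitgeber time in h, with a point per liver and lines through group means ± SD (n = 4), DRF in red, NRF in blue and the dark phase shaded. Each gene's lines cross between regimens, and the DRF mean of Ppp1r3c is 41.5 at ZT12 against 3.77 under NRF.

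Ppp1r3g (ENSMUSG00000050423, chromosome 13, 35958839 to 35970388, plus strand), a targeting subunit, was near 0 in nearly every liver. At ZT12 under NRF, the end of the hours without food, the livers held 0.021, 14.2, 6.89 and 4.08 scaled counts, from 15 to 8576 recovered counts. Outside that group the median over 52 livers was 0.0268 and the highest values were 1.62, in DRF ZT0 replicate 4, and 0.528. So 3 of the 4 livers at ZT12 under NRF and 1 other liver passed 1 scaled count. NRF ZT12 replicate 1, the liver without the signal, also had the lowest Gys2, Gbe1, Ugp2 and Pygl of its group. It had the highest Ppp1r3b of the group (59.9 scaled counts) and was lowest for neither Phka2 nor Ppp1r3c. Whether these are linked was not tested. At ZT12 DRF was lower by -2.26 ± 0.35 (log2, SE, adjusted p = 3.77e-06), a value that the added 1 makes smaller, with ranges that overlapped through replicate 1. The differences at the other 6 times, from -0.14 to 0.32, did not pass.

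**Figure D4:**
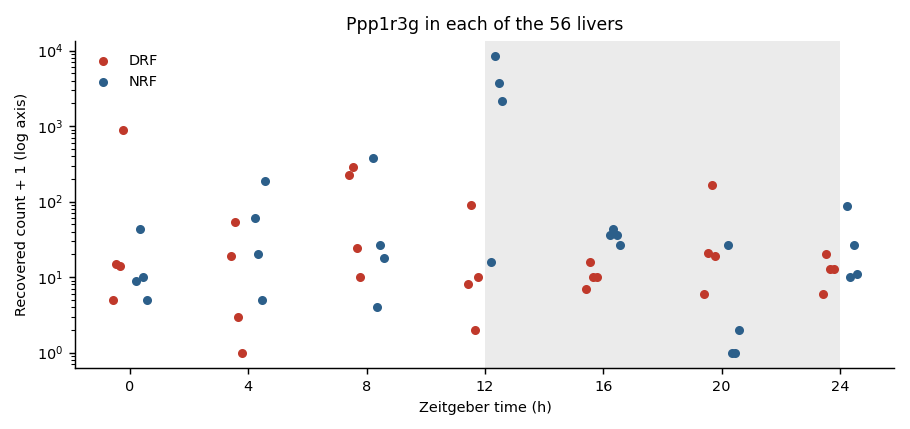
Recovered counts of Ppp1r3g plus 1 (log axis) in each of the 56 livers against zeitgeber time in h, DRF in red, NRF in blue and the dark phase shaded. The highest points are 3 of the 4 NRF livers at ZT12, up to 8576 recovered counts, and the next is 1 DRF liver at ZT0.

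Levels between members were compared as scaled counts per kilobase of exon over the 56 livers. The medians were 334 for Ugp2, 213 for Gbe1, 170 for Gys2, 52.9 for Pygl, 13.2 for Ppp1r3b, 12.6 for Phka2, 8.81 for Ppp1r3c and 0.0103 for Ppp1r3g. Ugp2 was above Gbe1 in 54 livers, and Gys2 was above Pygl and Pygl above Ppp1r3b in all 56. Neighbours that changed places in more livers were Gbe1 and Gys2 (Gbe1 higher in 36 livers), Ppp1r3b and Phka2 (28) and Phka2 and Ppp1r3c (38). Ppp1r3c was above Ppp1r3g in 53 livers, the exceptions being NRF ZT12 replicates 2, 3 and 4.

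A single transcript led, by deposited value times transcript length, in all 56 livers for Gys2-201, Gbe1-203, Ugp2-202 and Ppp1r3c-201. Ppp1r3b-202 led in 54. For Pygl the lead was split between Pygl-202 (41 livers) and Pygl-201 (15), and for Phka2 between Phka2-203 (34), Phka2-201 (14) and Phka2-204 (8). No Ppp1r3g transcript was analysed here.

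To separate food from light, livers of the fed phase (ZT4 and ZT8 under DRF, ZT16 and ZT20 under NRF) were set against those of the phase without food, averaged over the regimens. Of the 8 members, 5 were called (28.7% of all genes), 4 higher with food (13.1% of all genes were higher) and Phka2 lower (15.6%). Ppp1r3b was higher in the fed phase by 1.83 ± 0.12 (log2, SE, adjusted p = 1.5e-16), a ratio of 3.56. Gys2 was higher by 0.72 ± 0.06 (adjusted p = 5.47e-14), Ppp1r3c by 0.49 ± 0.09 (4.24e-05) and Gbe1 by 0.31 ± 0.07 (6.67e-04), and Phka2 was at -0.37 ± 0.02 (1.3e-17). For Gbe1, light minus dark was -0.63 ± 0.10 under NRF (limma, adjusted p = 1.77e-06) and -0.02 ± 0.10 under DRF (0.928). Its food estimate and its light estimate below thus both come from the NRF livers. Ugp2 at -0.10 ± 0.08, Pygl at -0.05 ± 0.06 and Ppp1r3g at -0.0042 ± 0.17 did not pass. This contrast and the light contrast below use only ZT4, ZT8, ZT16 and ZT20, and leave out the borders ZT0, ZT12 and ZT24. Ppp1r3g had its highest mean, 6.30 scaled counts, in the omitted group NRF ZT12. Gys2 had its highest mean of each regimen in an omitted group, 1070 at NRF ZT12 and 553 at DRF ZT24. The fitted peak of Ugp2 fell near a border in each regimen (DRF 23.0 h, NRF 11.7 h). For Gys2, Ugp2 and Ppp1r3g, a link with food around the borders was thus not tested by this contrast. The average also hides groups in the other order. Mean Ppp1r3c was lower with food at DRF ZT4 (21.6, against 29.4 at ZT16) and NRF ZT16 (15.6, against 23.8 at ZT4). It was higher with food at DRF ZT8 (33.2, against 11.1 at ZT20) and NRF ZT20 (47.6, against 15.7 at ZT8). Mean Gys2 was lower at NRF ZT20 (451) than at NRF ZT8 (519), and higher with food in the other such pairs. The median over the 8 members was 0.15, and over all genes it was near 0.

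Some cell type markers also moved with food, where 13.1% of all genes were called higher and 15.6% lower. Of the 5 hepatocyte markers tested, 2 were called higher and none lower. These were Tat (0.78 ± 0.12 in log2, SE, limma adjusted p = 1.53e-06) and Hnf4a (0.33 ± 0.04, 5.59e-08). The 4 sinusoidal endothelium markers summed to 274 to 341 scaled counts in fed-phase livers and 324 to 399 in the others, and 2 of 4 were called lower. Of the stellate cell markers 2 of 5 were called lower, with sums of 598 to 820 against 682 to 872. None of the 5 Kupffer cell markers was called, with sums of 494 to 806 against 559 to 890. Of the 4 cholangiocyte markers 1, Krt19, was called higher (0.30 ± 0.08 in log2, adjusted p = 0.00371), with median sums of 6.90 against 6.30. Their part in the results was not tested.

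Livers of the light phase set against those of the dark phase gave 4 members called (36.3% of all genes), 3 lower in the light (15.2%) and Phka2 higher (21%). Ppp1r3b was lower by -0.65 ± 0.12 (log2, SE, adjusted p = 2.62e-05), Gbe1 by -0.33 ± 0.07 (2.7e-04) and Pygl by -0.18 ± 0.06 (0.0132). These are averages over the regimens. For Ppp1r3b, light minus dark was 1.19 ± 0.17 under DRF (limma, adjusted p = 3.21e-07) and -2.48 ± 0.17 under NRF (1.23e-15). It was thus higher in the light under DRF and lower in the light under NRF. Phka2 was at 0.06 ± 0.02 (adjusted p = 0.0303), with light minus dark of -0.31 under DRF and 0.43 under NRF. Its call was lost in 8 leave-one-out fits (adjusted p from 0.0502 to 0.0654), without DRF ZT8 replicate 3, ZT16 replicate 1 or ZT20 replicate 1 and without NRF ZT4 replicate 1 or 4, ZT8 replicate 2 or ZT20 replicate 3 or 4. With the deposited values it became -0.05 and passed in that direction (limma, adjusted p = 7.47e-04). Gys2 (-0.066, adjusted p = 2.68e-06) and Ugp2 (-0.068, 3.25e-04) then passed as lower in the light too. The length index described above was lower in the light phase in both regimens. With the length trend removed, Ppp1r3b, Gbe1, Pygl and Phka2 stood at -0.62, -0.31, -0.14 and 0.09 and passed.

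**Figure D5:**
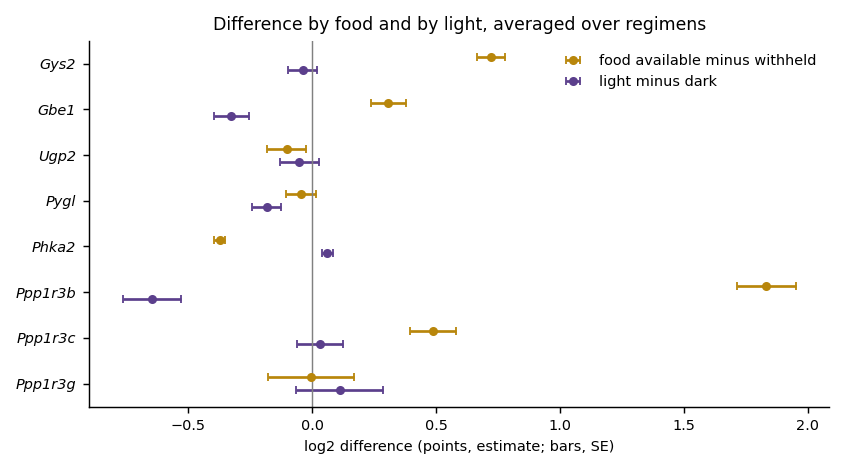
Log2 difference of the 8 members between hours with and without food and between light and dark, each averaged over the regimens (points, estimates; bars, SE from limma). Ppp1r3b lies at 1.83 for food and -0.65 for light, and Phka2 at -0.37 for food and 0.06 for light.

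Livers 12 h apart, at the same time from the start of the feeding phase and in opposite light, were compared next. Of 48 pairs of member and time, 14 were called, and none of the 8 members passed in DRF ZT8 against NRF ZT20 (12% of all genes) or DRF ZT12 against NRF ZT24 (1.54%). At an unadjusted p under 0.05, limma gave 2 and 3 members there, and the estimates ran from -0.52 to 0.46. The lowest of them, Ppp1r3c at DRF ZT8 against NRF ZT20 (adjusted p = 0.0566), passed in 4 leave-one-out fits (0.0323 to 0.0469). With the NRF livers of ZT0 in place of those of ZT24, the same clock time, DRF ZT12 gave 4 members called (10.4% of all genes), all higher under DRF (4.77%): Ugp2 by 0.68 ± 0.16 (adjusted p = 0.00335), Gbe1 by 0.61 ± 0.14 (0.00383), Phka2 by 0.16 ± 0.04 (0.0141) and Ppp1r3b by 0.72 ± 0.24 (0.0441). Ppp1r3b lost this call without any 1 of 7 of the 8 libraries, NRF ZT0 replicate 3 being the exception (adjusted p up to 0.136), and Phka2 lost it without DRF ZT12 replicate 2 (0.0716) or NRF ZT0 replicate 2 (0.064). At the end of the hours without food, DRF ZT0 against NRF ZT12, 3 members were called (2.83% of all genes). Gys2 was lower under DRF by -0.95 ± 0.11 (adjusted p = 6.97e-07), with every DRF liver (506 to 572) under every NRF liver (792 to 1223). Ppp1r3g was lower by -1.95 ± 0.35 (5e-04) and Ppp1r3c higher by 0.85 ± 0.19 (0.00482), at 6.60 to 9.25 against 3.02 to 4.70 scaled counts. With DRF ZT24 in place of DRF ZT0 the same 3 members were called in the same directions, and Ugp2 was higher too by 0.60 ± 0.16 (adjusted p = 0.0113; 8.37% of all genes called), a call lost without DRF ZT24 replicate 3 (0.0631) or NRF ZT12 replicate 1 (0.0781).

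In the other matched pairs Gys2 was lower at DRF ZT4 against NRF ZT16, by -0.50 ± 0.11 (adjusted p = 0.00228), among 2 members called (15.2% of all genes). For DRF ZT16 against NRF ZT4, 3 were called, all higher under DRF (9.86% of all genes were higher and 17.8% called), with Gbe1 at 0.63 ± 0.14 (0.00135), and Ppp1r3b lost its call without DRF ZT16 replicate 1 or NRF ZT4 replicate 4 (0.0742 each). For DRF ZT20 against NRF ZT8, 6 were called (16.9%), with Ppp1r3b highest at 1.41 ± 0.24 (3.75e-05). Its livers stood at 30.5 to 54.5 scaled counts in the former group and 10.4 to 18.6 in the latter, both in the hours without food. Of the other 5, Pygl kept its call in every leave-one-out fit. The call was lost for Gys2 without NRF ZT8 replicate 3 (adjusted p = 0.0626), for Gbe1 without DRF ZT20 replicate 3 (0.0608), for Phka2 without DRF ZT20 replicate 1 (0.107) or NRF ZT8 replicate 2 (0.067) and for Ugp2 without any 1 of 6 libraries (up to 0.12).

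A 24-h rhythm was called in 7 members under DRF (44.1% of all genes) and 8 under NRF (44.9%) by an exact rank test and a cosine fit combined. The cases near the threshold were Pygl under DRF (adjusted p = 0.042) and Ppp1r3g under NRF (0.0406). Pygl gave 0.268 with the exact rank test alone and 0.0524 with the limma cosine fit, and was lost in 11 of 28 leave-one-out fits (up to 0.166, without DRF ZT16 replicate 4). Ppp1r3g gave 0.141 and 0.0314, and was lost in 14 of 28 (up to 0.161, without NRF ZT12 replicate 3). Ppp1r3g under DRF had an adjusted p of 1.

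The rhythm itself differed between regimens for all 8 members (39% of all genes), with adjusted p from 5.24e-26 for Gys2 to 0.0289 for Ppp1r3g. The Ppp1r3g call was lost without DRF ZT0 replicate 4 (0.0535) and without NRF ZT12 replicate 2 (0.0771), 3 (0.0817) or 4 (0.0702). Of the 7 members with a rhythm in both regimens, 5 had fitted peaks 8 h or more apart, against 49.1% of the 6683 such genes. The fitted peak of Ppp1r3c lay at 11.1 h ± 0.23 (SE) in DRF livers and at 22.8 h ± 0.32 in NRF livers, which are 11.7 h ± 0.40 apart. Phka2 shifted by 11.4 h ± 0.69, Ugp2 by 11.4 h ± 1.09, Gys2 by 10.8 h ± 0.43 (2.59 h and 13.4 h) and Ppp1r3b by 10.2 h ± 0.42 (9.03 h and 19.2 h). Gbe1, with 12.3 h and 17.3 h, shifted by 5.03 h ± 1.17, and Pygl, with 16.3 h and 22.5 h, by 6.21 h ± 1.48. None of the 7 had peaks within 4 h, where 25.3% of those genes lay.

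The mean over the day, with the rhythm in the model, was called for 4 members (6.94% of all genes): higher under DRF for Ugp2 by 0.48 ± 0.06 (log2, SE, adjusted p = 1.44e-07), Ppp1r3b by 0.40 ± 0.11 (0.0143) and Gbe1 by 0.22 ± 0.06 (0.00759), and lower for Gys2 by -0.28 ± 0.05 (4.29e-05). Higher genes were 4.27% and lower 2.67% of all. These are means of log2 values. In scaled counts, the fitted mean of Ppp1r3b was 94.6 ± 3.76 (SE) under DRF and 82.1 ± 3.36 under NRF. Its plain means over the livers were 88.7 and 85.3, and its median was lower under DRF, 78.0 against 85.8. The 4 red blood cell markers were all higher under DRF, by 0.45 to 0.63, and their part in the results was not tested.

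A 12-h component beside the 24-h one was called for Phka2 and Ppp1r3c in both regimens, 2 of 8 members against 6.79% of all genes under DRF and 0.809% under NRF. The adjusted p was 1.19e-04 and 0.00207 for Phka2 and 0.0229 and 0.00959 for Ppp1r3c. The DRF call of Ppp1r3c was lost without DRF ZT4 replicate 3 (0.0536) or 4 (0.0722), and without NRF ZT12 replicate 1 Ppp1r3g passed under NRF (0.0237). ZT24 against ZT0, the same clock time, gave no member called in either regimen (3.25% and 8.3% of all genes), with 3 and 0 members at an unadjusted p under 0.05 by limma and estimates from -0.39 to 0.36, while the length index stood at -0.125 and 0.178 under DRF and -0.184 and 0.183 under NRF.

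The wider glycogen list held 43 genes, 42 of them tested. In the fed phase 13 were higher and 5 lower, where 13.1% of all genes were higher and 15.6% lower, with a median of 0.012 (log2). The enzymes outside the members gave 3 higher and 2 lower of 8. Pgm1, a phosphoglucomutase, was at 0.15 ± 0.04 (adjusted p = 0.0035) and Gys1, the synthase of muscle, at 0.17 ± 0.06 (0.0288). Gaa, the lysosomal glucosidase, was at -0.24 ± 0.03 (1.17e-07) and Gyg, glycogenin, which primes new particles, at -0.34 ± 0.09 (0.00458). Pygb (0.01), Pygm (-0.10) and Pgm2 (0.0024) did not pass.

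Those with the smallest adjusted p outside these enzymes were led by Akt1, a kinase of insulin signalling, at 0.42 ± 0.03 (1.69e-13). Epm2a, the glycogen phosphatase laforin, was at -0.48 ± 0.05 (7.74e-10), Ppp1r3e, another targeting subunit, at 0.29 ± 0.04 (2.9e-08) and Prkaa2, a subunit of AMP-activated kinase, at 0.30 ± 0.05 (5.52e-06). Ppp1ca, a catalytic subunit of protein phosphatase 1, was at -0.32 ± 0.07 (2.15e-04), Nhlrc1, the ubiquitin ligase malin, at 0.07 ± 0.02 (0.00267) and Ppp1r3d at -0.04 ± 0.01 (0.00396). Nhlrc1 and Ppp1r3d had medians of only 0.294 and 0.0958 scaled counts, where the added 1 makes differences smaller. By class, 2 of 7 phosphorylase kinase genes were higher and none lower, 4 of 12 upstream kinases were higher and none lower, 1 of 7 phosphatase genes was higher and 2 lower, 1 of 3 glycogen-bound and Lafora proteins was higher and 1 lower, and 2 of 5 genes of glucose 6-phosphate entry and exit were higher and none lower. These classes are small beside the shares of all genes given above, and nothing is read from them singly.

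The genes most like each member were taken by Pearson's r of the 14 group means of log2(scaled count + 1), a description across groups that share clock time and food. Gys2 was followed by Wee1 (r = 0.952), a cell cycle kinase, Lrp4 (0.952) and Nrg4 (0.940). Ppp1r3b was followed by Gm45469 (0.973), Cry1 (0.956), a core clock repressor, and Lonrf3 (0.947), and Ppp1r3c by Tubb2b (0.973), Tjp3 (0.972) and Ddc (0.961). Ugp2 was followed by Ptgr2 (0.943), Hibch (0.942) and Slc25a13 (0.938), Gbe1 by Akr1d1 (0.940), Eif3m (0.937) and Sar1b (0.935), and Pygl by Gfm2 (0.914), Pdss2 (0.912) and Mfsd4b3 (0.900). Phka2 was followed by Unc93a (0.969), with a mean of only 0.287 scaled counts, and Tmem181a (0.942). Ppp1r3g was followed by Gm49514 (0.982), Gm23991 (0.971) and Ubash3a (0.969), whose mean levels were 0.12, 0.0023 and 0.134 scaled counts. The mean of Ppp1r3g was 6.30 at NRF ZT12 and at most 0.421 in the other groups, so its r rests mainly on NRF ZT12. Among the members, Phka2 and Ppp1r3b ran most opposite (r = -0.83), and Gys2 and Ppp1r3c stood at -0.74.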

How the data were processed

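Livers of 56 mice (14 groups of 4) were profiled. Per the labels, samples carried polyA as the molecule while the protocol describes ribosomal depletion. The submitters' processing notes name CASAVA 1.8, featureCounts 1.5.0-p3 and the builds mm10 and GRCm38.p6; the aligner is not given in the sources used here. The authors deposited a gene score named TPM that is not linear: value times exon length (GENCODE vM21) equals a library constant times ln(1 + f·k) with whole k, so scaled counts f·k were rebuilt (tolerance 0.05; 94.2% to 99.0% of held-out values whole, 10% by chance). The recovered counts (311500000 to 701211000 per library) exceed the depth the study describes, so they are not reads, and counting intervals are not given. That check covers values up to 100000 recovered counts, and the medians of Gys2, Gbe1, Ugp2 and Pygl lay above it. At a wider tolerance of 0.2, which chance meets more often, 98.2% of libraries were whole for Gys2 and 100% for Pygl. Gbe1 (85.7%) and Ugp2 (91.1%) had medians above 500000, where wholeness was not judged. Lengths were searched for 928 genes, among them Ppp1r3c (2719 bases used, 2725 annotated), and 127 were not rebuilt. Deposited transcript scores served only to rank transcripts within a gene.

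Fits used limma 3.58.1 in R 4.3.3 (trend, empirical Bayes) on log2(scaled count + 1). Rhythms combined an exact Kendall test against 12 templates with a cosinor F test by Fisher's method, in Python 3.11.15; on simulated data this combination called more unchanged genes than its adjusted p allows, so cases near the threshold are given with both alternatives. Members, gene lists and tests were chosen with earlier results of these data known. Named genes are the 8 members, the 10 genes of the wider list with the smallest adjusted p for food and its remaining enzymes, and the 3 genes most correlated with each member. Of these, 3 genes are not reported here. Replicate numbers mark different animals and were not used as pairs. P-values measure the spread between animals sampled once. The circRNA table was not used here, since its entries are not paired with host genes. Alternatives were other pseudocounts, filters, scalings, the deposited values, length trend removal and leaving out each library.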

Additional observations from a re-analysis of the deposited data

Results flagged for a closer look

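Of 112 groups of 4 livers (8 members, 14 groups), 9 had a liver far from the other 3, where chance gives about 1 in 20. For Ppp1r3g these were the highest livers at ZT0 (1.62 scaled counts), ZT12 (0.149) and ZT20 (0.309) under DRF and at ZT0 (0.102), ZT8 (0.516) and ZT20 (0.065) under NRF. For Ppp1r3b the lowest livers stood apart under NRF at ZT8 (10.4 against 17.6 to 18.6) and at ZT16 (105 against 151 to 155). For Gys2 the highest liver at ZT16 under DRF held 262, against 231 to 236 in the other 3.

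The light minus dark difference itself differed between DRF and NRF for 5 members, against 28.7% of all genes, by limma's test of the interaction. In this design that test is the same contrast as the food effect of the report, so it adds no separate evidence. The food effect in log2, averaged over the regimens, follows with light minus dark under DRF and under NRF in brackets. Food came in the dark under NRF, so a negative NRF value in brackets means higher with food. The food effect was 0.72 for Gys2 (0.68 and -0.76), 0.31 for Gbe1 (-0.02 and -0.63) and -0.37 for Phka2 (-0.31 and 0.43). It was 1.83 for Ppp1r3b (1.19 and -2.48) and 0.49 for Ppp1r3c (0.52 and -0.46).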

How the results depend on the processing

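Tested in log2 of the deposited values plus 1, the rhythm difference was called for 5 members in place of 8, the mean difference for 2 in place of 4, the 12-h component in 2 cases in place of 4, and ZT24 against ZT0 in 8 cases in place of 0. With those values the light-phase difference of Phka2 was -0.046 in place of 0.06, and each passed. Gys2 and Ugp2 passed as lower in the light only with those values. The Phka2 difference between DRF ZT20 and NRF ZT8 was 0.038 in place of -0.15. The deposited values are a logarithm divided by length, and the cause was not tested further. On the log2 scale 2 amplitude differences passed in place of 1. No other count of members called, in 71 recomputed cases, moved by over 1.5 times.

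Leaving out each library gave 32 to 34 calls over member and time, 5 for food, 3 to 4 for light, 12 to 17 for the matched pairs, 7 to 8 for the rhythm difference and 3 to 5 for the 12-h component. Of single members the sign of no called difference turned in those fits. Over all of them, 37 calls of a difference between groups were lost and 8 gained, and 31 calls of a rhythm, a rhythm difference or a 12-h component were lost and 1 gained. In the matched pairs, Ugp2 at DRF ZT4 against NRF ZT16 lost its call without any 1 of 4 libraries (adjusted p up to 0.192). The samples share only a replicate number: same-numbered livers had a mean correlation of deviations of 0.0042 over 364 pairs, and a replicate block left the food count at 5, the light count at 4, the matched count at 14 and the count over member and time at 34. Ppp1r3g had a median of 16 recovered counts, and what depth means for it was not tested.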
